A study of Mus musculus with 6 samples.

Results

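The genes described here are 8 genes of cartilage formation and of the Runx family: Sox5, Sox6, Sox9, Acan, Col2a1, Runx1, Runx2 and Runx3. They were taken by name, and every probe set annotated to 1 of them was read, which gave 24 probe sets for 7 of the 8 genes out of 18193 genes on the array. No probe set carries the name Runx2 in the annotation used here, so Runx2 was not analysed here. RNA came from forelimb buds of CD1 mouse embryos at stage E10.5, with proximal and distal parts taken separately. Each part was hybridised to 1 Affymetrix array in each of 3 conditions, which makes 6 arrays. The double knockout (dKO) has the genotype Prx1-Cre; Ring1A-/-; Ring1Bfl/fl. The retinoic acid (RA) group is labelled wild type, and these embryos were given all trans retinoic acid through the mother by oral gavage, at 100 mg/kg at stage E10.25. The control was untreated. It is called wild type in its description but Ring1A-/- in its genotype label and in the series design, so dKO and control share the Ring1A deletion by genotype, and RA differs from control in both treatment and genotype label. Prx1-Cre is active in limb bud mesenchyme, so ectoderm, blood and vessel cells are not its target. The labels do not give the number of embryos behind an array. With 1 array per group no difference between arrays has a replicate check, and the number of arrays limits the precision.

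Cartilage begins in the limb as condensations of mesenchyme. SOX9 is the transcription factor that commits cells to this fate, and SOX5 and SOX6 act beside it on cartilage genes. Type II collagen (Col2a1) and aggrecan (Acan) are the main collagen and proteoglycan of the matrix that follows. RUNX proteins bind DNA together with the partner subunit CBFb: RUNX1 is known for blood formation, RUNX2 for bone and hypertrophic cartilage, and RUNX3 for sensory neurons, T cells and, with RUNX2, chondrocyte maturation. RING1A and RING1B are the ubiquitin ligases of Polycomb repressive complex 1, which in mammals gathers at CpG-rich promoters of silent developmental genes.

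The values are MAS5 signals, a linear intensity scaled to a trimmed mean of 500 on every array. The median signal of an array, 73.0 and 76.1 in dKO (proximal and distal), 63.0 and 68.2 in RA and 64.0 and 59.5 in control, served as its floor, and lower signals were set to it before log2 was taken. A difference that ends at a floored value is given as "at least". The RA arrays stood apart in features outside the limb: Xist, the RNA of the inactive X chromosome, had signals of 12.9 and 29.5 in RA against 3017 to 3688 on the other 4 arrays. Eif2s3y, a gene of the Y chromosome, had 2783 and 3064 in RA against 12.3 or less on the other 4. By these genes the RA arrays and the control arrays differ in embryo sex as well as in treatment and genotype label, and these cannot be told apart. A BioB spike-in probe set had 84.4 and 103 in RA against 1105 to 1223. Across genes, which are not independent replicates, the proximal RA array had correlations of r = 0.927 to 0.951 with the remaining 5, and the control pair had r = 0.985. Ring1, which encodes RING1A, had signals of 402 and 578 in dKO, 420 and 245 in RA and 624 and 968 in control. The sources used here do not place its probes against the deleted exons, so these signals do not check the genotype labels. Of 10 limb mesenchyme markers, 9 were above the floor on all 6 arrays.

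Of the 7 genes, Sox5, Sox6, Sox9 and Col2a1 were above the floor on all 6 arrays. Acan and Runx3 were above it on the 2 dKO arrays, and the brightest Runx1 probe set on none. Each gene is represented by its brightest probe set, and levels are compared between arrays, never between genes. The plot of signals by array shows the pattern: Sox6 had a different level in each condition, Acan and Runx3 stood above the floor in dKO alone, and Sox9 was lowest in the distal control.

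**Figure D1:**
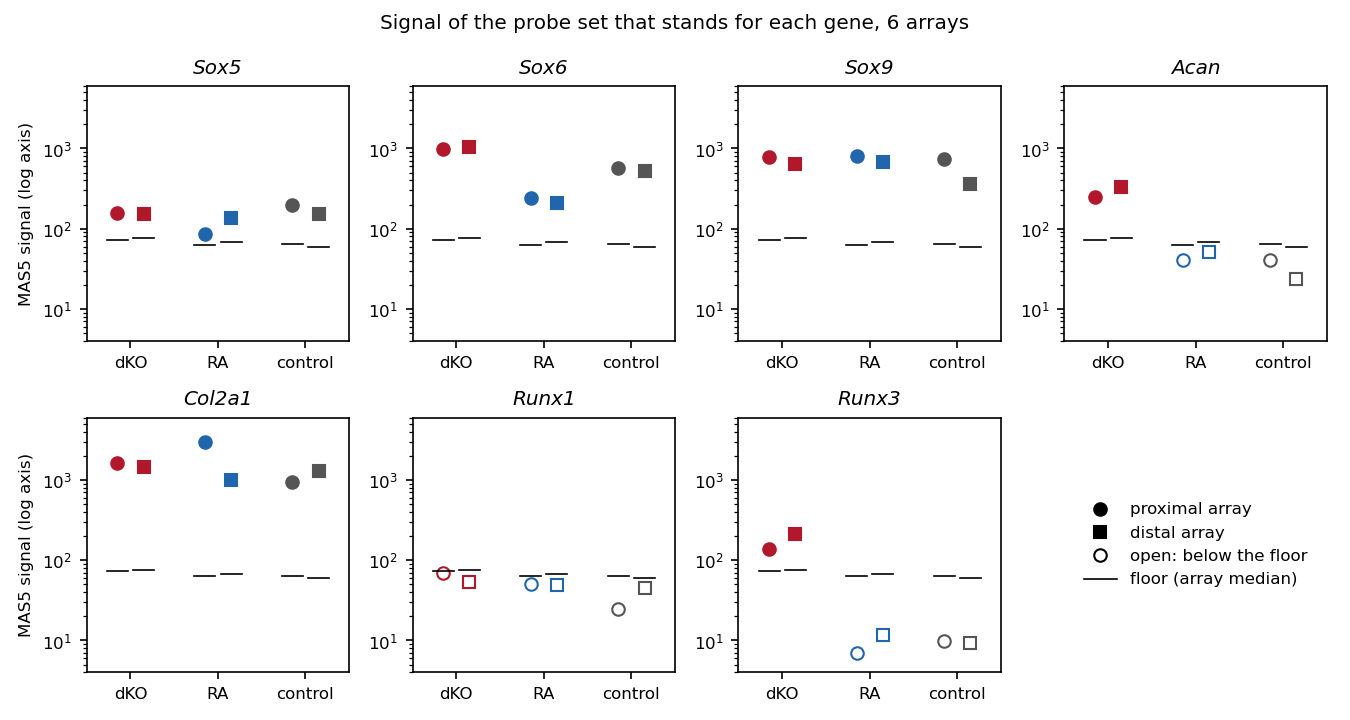
MAS5 signal (log axis) of the brightest probe set of each gene on the 6 arrays, by condition; circles are proximal and squares distal arrays, open symbols lie below the floor, and short lines mark the floor. Acan (249 and 327) and Runx3 (137 and 211) are above the floor on the dKO arrays only, and every Runx1 symbol is open.

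Sox9 (probe set 1451538_at), the commitment factor, had signals of 773 (proximal) and 635 (distal) in dKO, 813 and 671 in RA and 729 and 357 in control. The distal control array was thus the low one, and the other 5 arrays lay between 635 and 813. In the distal part Sox9 was higher by log2 0.83 in dKO and 0.91 in RA than in control, against 0.08 and 0.16 proximally. The small proximal dKO difference turned to -0.11 when each array was divided by its median. In the additive fit described below, Sox9 passed the threshold in neither comparison (dKO log2 0.46, SE 0.26, limma adjusted p = 0.676; RA 0.53, SE 0.26, adjusted p = 0.349). The other 2 Sox9 probe sets were below the floor on all arrays, with signals of 4.34 to 26.3.

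Sox6, a partner of SOX9, was higher in dKO and lower in RA than in control. Its signals (probe set 1434918_at) were 977 and 1052 in dKO, 245 and 212 in RA and 563 and 531 in control. In each condition the proximal and distal arrays lay close together, and the 3 conditions did not overlap. The difference from control was log2 0.79 proximally and 0.99 distally in dKO, and -1.20 and -1.33 in RA. Of all genes, 4.22% were as low or lower in RA proximally and 0.904% distally, and 6.38% and 5.44% were as high or higher in dKO.

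A further 2 of the 4 Sox6 probe sets showed the same order of conditions. Probe set 1447655_x_at had 427 and 573 in dKO, 68.1 and 121 in RA and 200 and 233 in control. Probe set 1427677_a_at had 407 and 396 in dKO, 54.1 (below the floor) and 94.6 in RA and 179 and 203 in control. The 4th, 1426018_a_at, stayed between 17.0 and 23.1, below the floor throughout. In the additive fit Sox6 did not pass the threshold for RA (log2 -1.26, SE 0.22, limma adjusted p = 0.0726) or for dKO (0.89, SE 0.22, adjusted p = 0.124). When each probe set was fitted on its own, the 3 measured Sox6 probe sets gave log2 values of 0.89 to 1.19 for dKO (adjusted p = 0.132 to 0.166) and -1.25 to -1.30 for RA (adjusted p = 0.0677 to 0.106).

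Sox5, the close relative of Sox6, differed in fewer arrays. Probe set 1455535_at had signals of 158 and 151 in dKO, 85.3 and 136 in RA and 196 and 154 in control. The proximal RA array was the lowest of the 6 (log2 -1.20 against control), and distally RA differed by -0.18. In dKO the differences were -0.32 and -0.03. The fit called neither (dKO log2 -0.18, SE 0.29, limma adjusted p = 0.997; RA -0.69, SE 0.29, adjusted p = 0.299). The Sox5 probe sets disagree: 1423500_a_at had 65.8 and 72.2 in dKO, 84.1 and 98.6 in RA and 81.0 and 64.8 in control, so that RA was not the low condition there. With the mean of all 7 Sox5 probe sets in place of the brightest, the proximal RA difference shrank to -0.15 and the distal one became 0.20. Of these 7, 3 were above a floor on any array and 1 on all 6. Those below it throughout carry only the difference of the array floors (log2 -0.02 proximally and 0.20 distally). This mean is therefore no check of the brightest probe set.

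**Figure D2:**
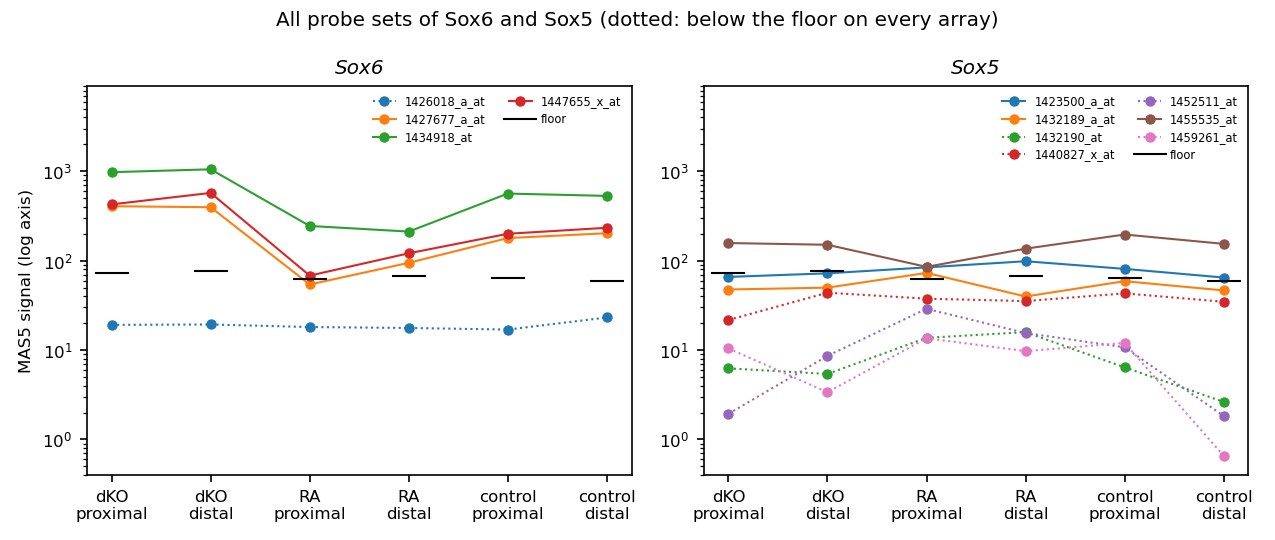
MAS5 signal (log axis) of every probe set of Sox6 (left) and Sox5 (right) on the 6 arrays, with the floor of each array as a black dash and dotted lines for probe sets below it throughout. The 3 measured Sox6 probe sets share the order of conditions, high in dKO and low in RA, but differ in which RA array is lower. The Sox5 probe sets do not share a pattern.

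Acan, the cartilage proteoglycan, rose in dKO. Its single probe set, 1449827_at, had signals of 249 proximally and 327 distally in dKO, 41.3 and 50.6 in RA and 40.3 and 23.4 in control. The RA and control signals are below the floor, so the dKO difference was log2 at least 1.96 proximally and at least 2.46 distally. The fit gave 2.21 (SE 0.21, limma adjusted p = 0.00758), the rank of 32 by p among 12147 genes. That value is a lower bound too. Acan entered the fit through the dKO arrays alone, and its other values are floors, so its p and rank are no support for the rise. RA and control cannot be compared for this gene, since all 4 arrays were at the floor.

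Runx3 rose in dKO as well. Probe set 1440275_at had signals of 137 and 211 in dKO, 6.93 and 11.6 in RA and 9.99 and 9.38 in control. The dKO difference was log2 at least 1.10 proximally and at least 1.83 distally (fit 1.46, SE 0.22, limma adjusted p = 0.0288, rank 170). That call was lost when arrays were divided by their medians (1.19, adjusted p = 0.0691), under quantile normalization (1.23, adjusted p = 0.103) and with the mean of both probe sets (0.87, adjusted p = 0.0543). That mean takes in a probe set at the floor on every array, so it is no check of the call. The call held with the floor at the 25th percentile (3.86, adjusted p = 0.0171), without a floor (2.28, adjusted p = 0.00732) and without a trend in the prior (1.46, adjusted p = 0.0383). The second Runx3 probe set, 1421467_at, was below the floor on all arrays, with 23.8 and 33.3 in dKO, 13.1 and 36.9 in RA and 5.13 and 0.902 in control. Acan and Runx3 entered the tests through the dKO arrays alone. Elsewhere their values are array floors, so their fitted dKO values are lower bounds and their p-values may be too small.

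The start regions of Acan and Runx3, which rose in dKO, and of Sox6 are shown because they differ in CpG content. For Sox9 (dKO log2 0.08 proximally and 0.83 distally) and Col2a1 (0.77 and 0.16) no start region was used here. Neither passed the fit, and the proximal Sox9 and distal Col2a1 values turned negative after division by the array median. Each window runs from 250 bases before to 50 bases after a RefSeq gene start (build GRCm38.p6), and capitals mark CpG dinucleotides. Acan has 1 window, chr7:79052976-79053275 on the + strand, with 31 CpG. Runx3 has 2, chr4:135120395-135120694 with 8 CpG and chr4:135152295-135152594 with 45 CpG, both on the + strand. Sox6 has 6 windows, and the one with the most CpG (13) is chr7:116030998-116031297 on the - strand.
Acan: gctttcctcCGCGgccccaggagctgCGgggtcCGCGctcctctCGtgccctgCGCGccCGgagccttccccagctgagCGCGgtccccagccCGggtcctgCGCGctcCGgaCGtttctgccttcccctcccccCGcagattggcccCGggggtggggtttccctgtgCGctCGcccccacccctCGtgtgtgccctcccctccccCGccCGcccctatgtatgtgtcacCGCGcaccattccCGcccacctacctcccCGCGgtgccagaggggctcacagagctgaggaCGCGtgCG
Runx3 first window: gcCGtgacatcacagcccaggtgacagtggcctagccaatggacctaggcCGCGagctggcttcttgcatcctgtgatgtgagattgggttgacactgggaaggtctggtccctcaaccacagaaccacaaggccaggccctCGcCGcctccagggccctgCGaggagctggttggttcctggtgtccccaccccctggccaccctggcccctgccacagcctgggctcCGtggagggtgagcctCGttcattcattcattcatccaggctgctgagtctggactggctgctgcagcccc
Runx3 second window: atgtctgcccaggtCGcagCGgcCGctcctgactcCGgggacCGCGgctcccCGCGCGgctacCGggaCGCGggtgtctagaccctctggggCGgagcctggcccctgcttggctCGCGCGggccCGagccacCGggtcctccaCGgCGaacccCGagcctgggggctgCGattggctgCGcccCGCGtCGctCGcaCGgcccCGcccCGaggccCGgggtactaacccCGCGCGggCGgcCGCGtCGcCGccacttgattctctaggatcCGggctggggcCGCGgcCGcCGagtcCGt
Sox6 second window: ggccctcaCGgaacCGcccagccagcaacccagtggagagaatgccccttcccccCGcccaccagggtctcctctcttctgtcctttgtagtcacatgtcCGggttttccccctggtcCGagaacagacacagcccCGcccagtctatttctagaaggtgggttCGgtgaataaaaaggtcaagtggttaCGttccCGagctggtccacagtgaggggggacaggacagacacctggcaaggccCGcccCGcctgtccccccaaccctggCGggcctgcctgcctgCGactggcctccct

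The median of all 32841 windows in the RefSeq table is 7 CpG, and 43.5% have 10 or more. Of all windows, 89.4% have fewer CpG than the Acan window and 98.1% fewer than the second Runx3 window, against 51.3% for the first. The 6 Sox6 windows hold 2 to 13 CpG. The second Runx1 window (chr16:92697280-92697579, - strand) has 35 CpG. By its brightest probe set Runx1 was below the floor in both dKO and control, so its difference was not measured. Whether CpG content goes with the dKO differences was not tested. The Sox5 window has 3. Which start is used in the limb bud was not measured.

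The letters TGNGGT (bound by RUNX proteins), AACAAT (bound by SOX proteins) and AGGTCA (the core of retinoid receptor sites) were searched on both strands, each counted separately where they overlap. TGNGGT was in 6 of the 12 windows of 5 genes, Acan and the first Runx3 window among them, and in 45.8% of all windows. AACAAT was in 1 (the 5th Sox6 window; 10.7% of all windows) and AGGTCA in 2, both of Sox6 (16.3% of all). A match is a description of these letters and no binding site.

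Col2a1, the cartilage collagen, was highest on the proximal RA array. Its signals (probe set 1450567_a_at) were 1613 and 1448 in dKO, 3002 and 1011 in RA and 947 and 1296 in control. Proximally RA was higher than control by log2 1.66, a difference that 0.599% of genes reached, and distally it was lower (-0.36). In dKO Col2a1 was higher by 0.77 proximally and 0.16 distally, and the distal value was -0.20 after division by the array median. The fit called neither (dKO log2 0.46, SE 0.43, limma adjusted p = 0.903; RA 0.65, SE 0.43, adjusted p = 0.456). The proximal RA value rests on 1 probe set on the array that stood apart. On that array the summed signal of the 8 somite and body wall markers was 6137, against 1520 on the distal RA array, 3170 and 2661 in dKO and 4425 and 2540 in control. Of these markers Nkx3-2 and Uncx were below the floor on all 6 arrays. Of the 5 measured in proximal RA and control, 3 were 2-fold or more higher in RA, beside 3.69% of all genes. The other 2, Meox2 (log2 -1.63) and Tbx18 (-2.66), were 2-fold or more lower, beside 6.8%. The summed signal of the 10 limb mesenchyme markers was 15855 on the proximal RA array, against 22028 to 27724 on the other 5. The part of these cell types in the Col2a1 value was not tested. In bulk tissue, a change in the number of cells of a type and a change in RNA per cell cannot be told apart.

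Runx1 was near or below the floor on every array. Its brightest probe set, 1427650_a_at, had signals of 68.8 and 54.1 in dKO, 51.2 and 49.4 in RA and 24.3 and 45.2 in control, all below the floors, so it entered no comparison. Of its 6 probe sets 1 was above a floor anywhere, 1452530_a_at on the proximal RA array (64.3 against a floor of 63.0). Of 12 markers of macrophages and white blood cells, in which RUNX1 acts, 5 were above the floor on all arrays, while Spi1, Itgam, Adgre1 and Cx3cr1 were below it throughout. The list's summed signal was 1681 and 1620 in dKO, 1658 and 2360 in RA and 1511 and 1828 in control.

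Setting dKO against control asks which of these genes differ when Ring1B is removed from Ring1A-/- limb mesenchyme. Acan and Runx3 were 2-fold or more higher in both parts, Sox6 was higher by less than 2-fold in both, Col2a1 by log2 0.77 proximally and Sox9 by 0.83 distally. Proximally 2 of 6 measured genes were higher and 0 lower, beside 4.07% of all 11580 genes higher and 0.363% lower. Distally 2 of 6 were higher and 0 lower, beside 5.32% and 0.524% of 11646. Since Acan and Runx3 were measured only through dKO, these counts are not evidence about the group as a whole. Of the 4 genes above the floor on all arrays, 0 reached 2-fold in dKO in either part by the brightest probe set. Other Sox6 probe sets did reach it: 1447655_x_at in both parts (log2 1.09 and 1.30) and 1427677_a_at proximally (1.18, with 0.97 distally).

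To ask whether an effect was alike in both parts, a limma model with condition and part as additive terms was fitted to 12147 genes, those that exceeded a floor on any array. It has 2 residual degrees of freedom, and its residual is the disagreement between pairs of arrays, so its p is not a replicate test. For dKO, 2 of 6 genes rose, beside 2.21% of all genes, and 0 fell, beside 0.115%. Both are genes measured only through dKO, so this count too is no evidence about the group. At an unadjusted p under 0.05 there were 3, with Sox6 as the third, beside 11.6% of all genes. Without the RA pair the fit has 1 residual degree of freedom and calls 11.9% of all genes. There Sox6 (adjusted p = 0.000419) and Col2a1 (adjusted p = 0.0327) passed as well as Acan and Runx3.

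**Figure D3:**
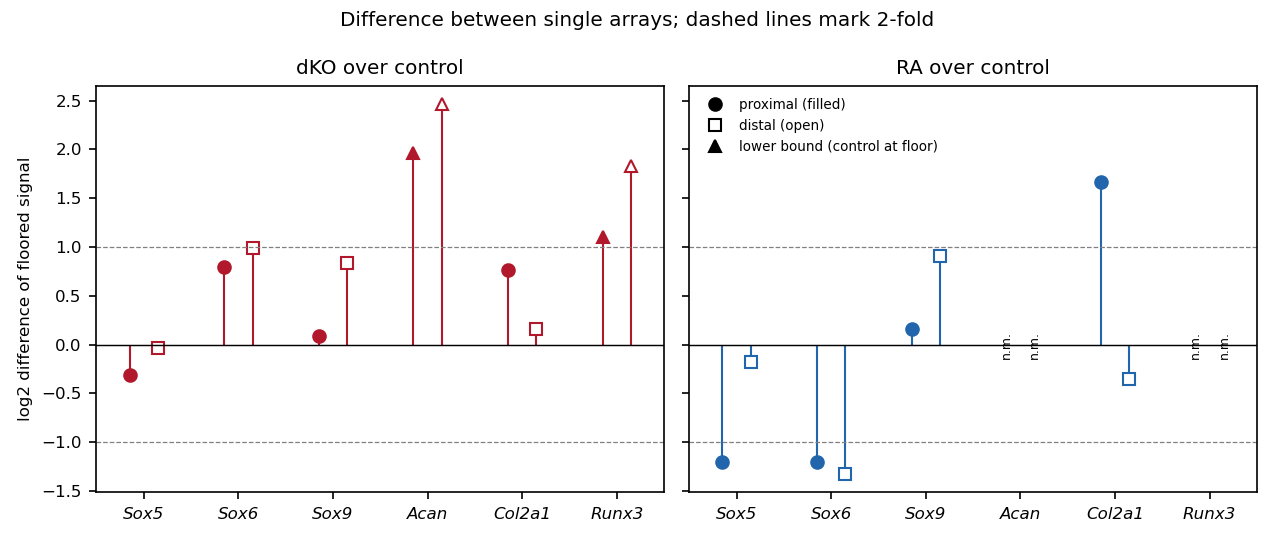
Log2 difference of floored signal between single arrays, dKO over control (left) and RA over control (right), for the 6 genes above a floor; filled symbols are proximal, open ones distal, triangles are lower bounds, n.m. means both arrays at the floor, and dashed lines mark 2-fold. Acan and Runx3 lie above the upper line in dKO, and Sox6 below the lower line in both parts of RA.

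The comparison of RA with control asks how the same genes stand after RA exposure, and it shares the control arrays with the dKO comparison. Sox6 was 2-fold or more lower in both parts, Sox5 was lower and Col2a1 higher proximally, and Sox9 was higher distally by less than 2-fold. Proximally 1 of 4 measured genes was higher, beside 3.69% of all 11521 genes, and 2 were lower, beside 6.8%. Distally 0 were higher, beside 2.16% of 11388 genes, and 1 was lower, beside 2.13%. In the limma fit 0 of 6 rose, beside 0.305% of all genes, and 0 fell, beside 0.239%. At an unadjusted p under 0.05 there were 2, Sox5 and Sox6, beside 16.7% of all genes. The fitted RA values of Acan and Runx3 come from floors alone and carry no information. Without the dKO pair Sox6 passed (log2 -1.26, adjusted p = 0.0274) in a fit that called 4.42% of all genes. Without the proximal RA array it also passed (-1.37, adjusted p = 0.00056), where 9.64% of all genes were called and the RA value rests on the distal array.

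**Figure D4:**
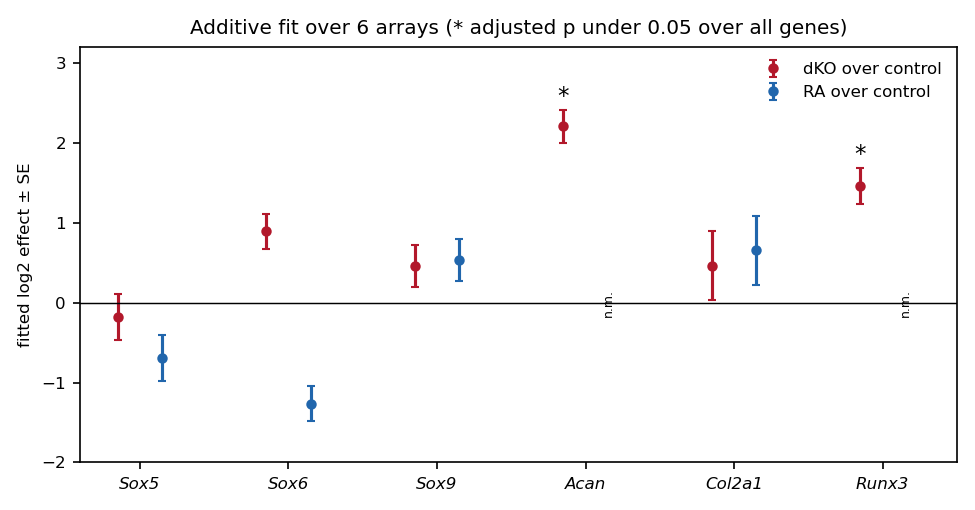
Fitted log2 effect (points) with its standard error (bars) from the additive model over 6 arrays, dKO and RA over control, for the 6 genes tested; asterisks mark an adjusted p under 0.05 over all genes, and n.m. marks effects made of floors alone. Acan (2.21) and Runx3 (1.46) in dKO carry asterisks, but both are lower bounds set by floors, and Sox6 lies on opposite sides of 0 in dKO and RA.

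Proximal and distal parts were compared within each condition. In dKO 0 of 6 genes were 2-fold higher proximally, beside 0.515% of genes, and 0 lower, beside 0.722%. The widest gaps there were those of Runx3 (log2 -0.62) and Acan (-0.39), both lower proximally. In RA 1 of 4 was higher proximally, Col2a1 (1.57), beside 4.4% of genes, and 0 were lower, beside 6.16%. In control 1 of 4 was higher proximally, Sox9 (1.03), beside 1.35% of genes, and 0 were lower, beside 1.4%. Sox9 was higher proximally in dKO and RA too, by 0.28 in each. Sox9 in control fell short of 2-fold in 4 of the 5 other ways of processing. In the fit for part, 0 genes were called higher and 0 lower (0% of 12147, with 9.52% at an unadjusted p under 0.05). Sox9 had log2 0.53 (SE 0.21, adjusted p = 0.504) and was the 1 gene of the group at an unadjusted p under 0.05.

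Other genes of the same pathways were read from lists chosen with earlier results of these data known. Counts on these lists are therefore no evidence about a list as a whole. Here and in the next paragraphs, list genes are said to rise, fall or change when the fit called them. A gene not called can still differ 2-fold between arrays. The fit called 2.21% of all genes higher and 0.115% lower in dKO, and 0.305% and 0.239% in RA. Among 18 cartilage matrix genes 11 were below the floor on all arrays, Comp, Matn1, Cnmd and Epyc among them. Genes named at the floor or by their range in this and the next paragraphs were picked after their values were seen. Of the 7 tested, 0 rose and 0 fell in dKO or in RA, and the median fitted effect was 0.06 in dKO and -0.11 in RA, against 0.02 and 0.00 over all genes. Vcan, a proteoglycan of loose mesenchyme, ranged from 2884 to 3987, and Hapln1, the link protein that binds aggrecan to hyaluronan, from 835 to 2615. Matn3 was the 1 gene of this list at 2-fold distally in dKO (1.60, with 530 in dKO and 175 in control) and proximally in RA (-1.30). In the fit it was not called (dKO adjusted p = 0.502).

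Of 13 early condensation and joint genes tested, the fit called 0 in dKO, beside 2.21% of all genes higher and 0.115% lower. At 2-fold in dKO, 2 of 13 measured were higher proximally, beside 4.07% of all genes, and 3 of 12 distally, beside 5.32%, with 0 lower. In each part of RA 3 of 13 were 2-fold higher (beside 3.69% and 2.16%) and 1 lower (beside 6.8% and 2.13%). In the fit for RA 0 fell, beside 0.239%, and 2 rose, beside 0.305%. These were the forkhead genes Foxc1 (log2 2.24 proximally and at least 1.98 distally, limma adjusted p = 0.0321) and Foxc2 (2.71 and 3.91, adjusted p = 0.0352). Foxc2 had signals of 621 and 188 in dKO, 1358 and 1412 in RA and 207 and 93.7 in control. Its dKO differences of 1.59 and 1.01 did not pass the fit (adjusted p = 0.244). Gdf5, the joint growth factor, and Nkx3-2 were below the floor on all arrays.

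Of 7 bone genes tested, the fit called 1 higher in dKO, beside 2.21% of all genes, and 0 in RA, beside 0.305% higher and 0.239% lower. At 2-fold in dKO, 3 of 6 measured were higher proximally, beside 4.07% of all genes, and 2 of 7 distally, beside 5.32%. In RA 1 of 5 was higher proximally, beside 3.69%, and 3 of 6 were lower distally, beside 2.13%. In each of these comparisons 0 went the other way. Of the 7 genes 4 were above the floor on all arrays. Postn, which encodes the matrix protein periostin, had signals of 386 and 401 in dKO, 145 and 16.2 in RA and 38.5 and 32.6 in control. Its dKO difference was log2 at least 2.59 and 2.75 (limma adjusted p = 0.0123). The hypertrophic cartilage gene Col10a1 and the bone genes Ibsp, Dmp1 and Phex were below the floor throughout. The median fitted effect of the list was 0.62 in dKO and -0.35 in RA.

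Of 18 tested Runx partners and corepressors, 0 changed in either comparison (medians 0.09 and 0.11). Cbfb, the shared DNA-binding partner, ranged from 2317 to 2925 over the 6 arrays. Tle2, a Groucho corepressor, was 2-fold higher in both parts of dKO (1.19 and 1.32) without passing the fit (limma adjusted p = 0.35). In RA it was higher too, by 2.34 proximally and 0.54 distally, and was not called (adjusted p = 0.241). Of 11 other Sox genes tested, the fit called 0 in either comparison (medians 0.35 and 0.16). At 2-fold in dKO, 1 of 10 measured was higher proximally, beside 4.07% of all genes, and 3 of 9 distally, beside 5.32%. In dKO 0 were lower, beside 0.363% and 0.524%. Sox1, a neural Sox gene, had 155 and 128 in dKO, 50.2 and 205 in RA and 0.753 and 0.616 in control, a dKO difference of at least 1.27 and 1.11 (adjusted p = 0.371).

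**Figure D5:**
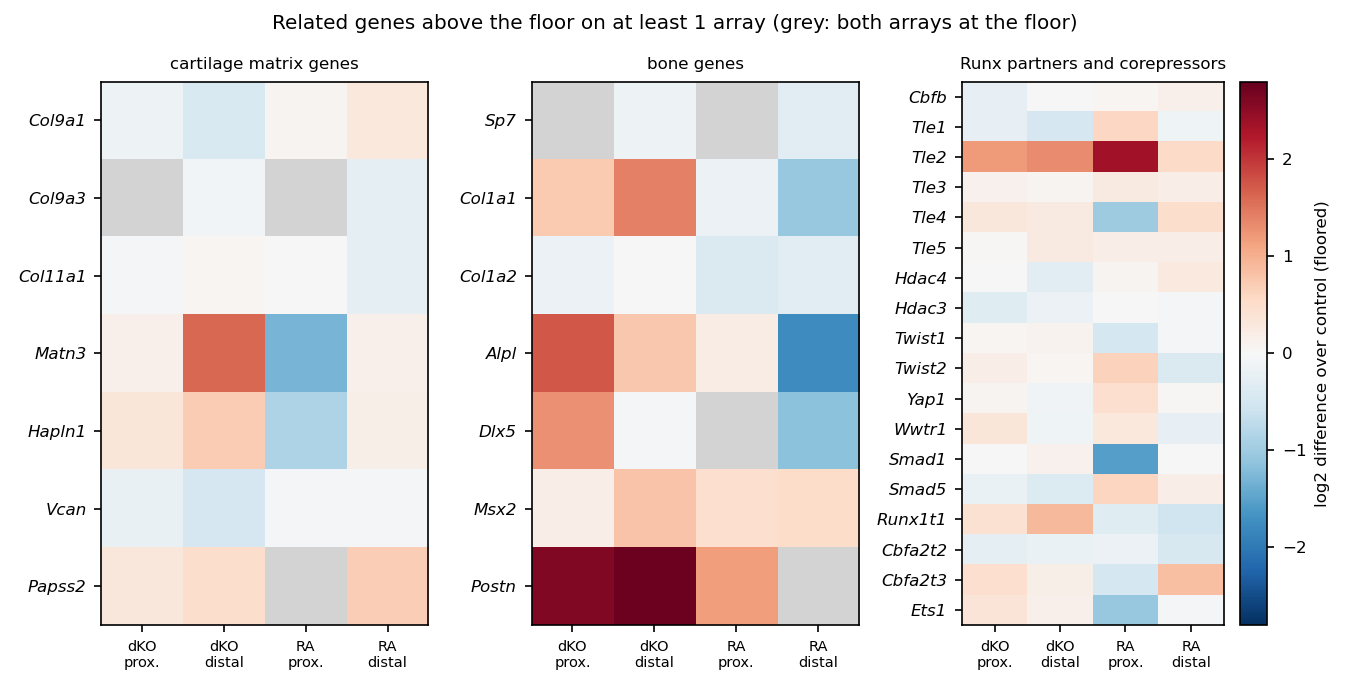
Log2 difference from control (colour) of cartilage matrix genes, bone genes and Runx partners and corepressors that exceeded a floor on any array, with columns for dKO and RA in each part; grey cells have both arrays at the floor. Postn has the largest differences in dKO (2.59 and 2.75). Tle2 is the 1 Runx partner at 2-fold in both dKO columns, and its largest difference is in proximal RA (2.34).

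Some markers of other cell types rose in dKO, as Acan and Runx3 did. Of 7 neuron markers tested, 3 rose in dKO, beside 2.21% of all genes, and 0 fell, beside 0.115%. Only 1 of the 7 was above the floor on all arrays, and the list was chosen with earlier results known. This count is therefore no evidence about the list. Isl1 rose by at least 2.25 and 2.03 (limma adjusted p = 0.00625). Nefl rose by 1.69 and 2.41 (adjusted p = 0.0276), and Nefm by 1.65 and at least 1.56 (adjusted p = 0.0151). Tubb3 was higher proximally (0.53) and lower distally (-0.54), with a fitted value of -0.004. The list's summed signal was 1964 and 1766 in dKO, 532 and 494 in RA and 774 and 656 in control. Ntrk3, the neurotrophin receptor of RUNX3-dependent sensory neurons, had 87.3 and 79.6 in dKO, 15.5 and 8.92 in RA and 8.45 and 13.5 in control. Its dKO signals were close to the floors of 73.0 and 76.1, and the fit did not call it (log2 0.43, limma adjusted p = 0.353). Prph and Elavl3 were below the floor everywhere. Of 6 somite and body wall markers tested, Pax9 rose in dKO (at least 2.09 and 2.23, adjusted p = 0.00625). Meox2 fell in dKO (-1.04 and -1.72, adjusted p = 0.0449) and in RA (-1.63 and -1.94, adjusted p = 0.0448). Tbx18 was lower in RA (-2.66 and -1.22, adjusted p = 0.105). Pax9 was above the floor on the 2 dKO arrays alone, and Isl1, Nefm and Postn were at the floor on 3 of 6 arrays, so their p-values may be too small, as for Acan and Runx3.

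The fit called 0 of 5 muscle precursor markers in either comparison. At 2-fold in dKO, 1 of 5 measured was higher proximally, beside 4.07% of all genes, and 3 of 4 distally, beside 5.32%. In dKO 0 were lower, beside 0.363% and 0.524%. In RA distally 1 of 4 was higher and 1 lower, beside 2.16% and 2.13%. Of the 5 markers 3 were above the floor on all arrays. Pax7 was at least 1.82 and 1.49 higher in dKO (limma adjusted p = 0.113). The fit called 0 of 10 limb mesenchyme, 12 surface ectoderm, 10 endothelium, 8 macrophage and white blood cell, 7 erythroid and 2 neural crest and Schwann cell markers in either comparison. Sox10 and Foxd3, which define neural crest, were below the floor on all arrays. On the same list Ngfr was above it throughout, with 547 and 700 in dKO, 600 and 1613 in RA and 337 and 166 in control. The fit did not call Ngfr (dKO log2 1.39, limma adjusted p = 0.350, RA 2.06, adjusted p = 0.159). Erbb3, also above the floor throughout, was lower than control distally in dKO (-0.26) and RA (-0.62). The part of any of these cell types in the Acan, Runx3 and Sox6 values was not tested.

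Genes with the most similar pattern were sought for each of the 6 genes with a range of 1 or more log2 units. The measure was the root mean square (RMS) difference of centred log2 signal over the 6 arrays, among 3248 genes. Nearest to Sox6 were Tmem63a (RMS 0.09), Rgs2 (0.15) and Lipg (0.17). Rgs2, a regulator of G protein signalling, had 1254 and 1148 in dKO, 369 and 249 in RA and 726 and 606 in control. Nearest to Acan were Rimkla, Matn2 (both 0.13) and Kcng1 (0.15), and nearest to Runx3 the homeobox genes Dlx4 (0.05) and Six3 (0.06), then Cadm3 (0.09). For these the shared floors set part of the likeness. Nearest to Col2a1 were Ntn1 (0.10), Fam149a (0.14) and Fam221a (0.16), to Sox9 Adgre5 (0.11), Ttll11 and Rasgrp3 (both 0.13), and to Sox5 Kmt2e (0.05), Atp8b2 (0.06) and Itfg2 (0.07).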

How the data were processed

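Per the labels' protocols, biotin-labelled cRNA was made from total RNA isolated with an RNeasy Micro kit. The values are the authors' deposited MAS5 signal intensity (MAS5 per the submitters' processing notes, version not given in the sources used here), linear, with each array's mean at 500 once 2% of probe sets are trimmed at either end, as checked on the values. 

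The table has 45101 probe sets, 34958 of them with 1 listed gene symbol, 932 with several and 9211 with none. Gene IDs of 34741 matched RefSeq and 0 symbols changed. A gene is its probe set of highest mean log2 signal. A gene entered a comparison when 1 of its arrays was above the floor, the median of that array. Groups follow the sample titles. Genes were counted at 2-fold, and limma 3.58.1 (trended prior, 4.64 prior degrees of freedom, Benjamini-Hochberg over all genes, threshold 0.05) fitted condition and part. Fit and count were tested on simulated data.

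The members and lists were chosen with earlier results of these data known. Named were all members, list genes at 2-fold in both parts or called, the 3 most alike genes per member, and markers. Alternatives changed scaling, floor, probe sets, prior, arrays and fold. Fitting each probe set on its own was chosen after seeing the data.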

Additional observations from a re-analysis of the deposited data

Results flagged for a closer look

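Several differences ran in opposite directions on the arrays compared, with all arrays above the floor. They compare single arrays and were not tested. Col2a1 was higher in RA than in control proximally and lower distally, and these log2 differences lay 2.02 apart. The same 4 arrays give the contrast of Col2a1 between parts, 2.02 more toward proximal in RA than in control, and in dKO it was 0.61 more than in control. For Sox5 the proximal over distal difference was lower in RA than in control (-1.02), and for Sox6 lower in dKO than in control (-0.19). The Sox6 case was small (-0.11 in dKO and 0.09 in control), and after division by the array median both values were negative (-0.047 and -0.018). Another Sox6 probe set, 1427677_a_at, ran the other way (0.04 in dKO and -0.18 in control), and 1447655_x_at was negative in both (-0.43 and -0.22). With 1 array per group, no group was large enough to look for an outlying array.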

How the results depend on the processing

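No result changed direction past its threshold. Of the recomputed counts of cartilage and Runx genes, 50 stayed within 1.5 times and 21 did not. In the fit for dKO, 2 genes became 1 after division by the array median, after quantile normalization and with the mean of all probe sets (Acan remained, Runx3 did not), and 4 without the proximal RA array or the RA pair. The mean of all probe sets takes in those below the floor on every array, whose only difference is that of the floors. For RA, 0 became 1 (Sox6) without the proximal RA array or the dKO pair. At 2-fold, the proximal dKO count of 2 became 1 under both scalings and with mean probe sets, and at 1.5-fold it was 4 in each part of dKO. The distal RA count of 1 became 2 with the floor at the 25th percentile, 0 with mean probe sets and 2 at 1.5-fold. Between parts, the count was 1 in dKO and 2 in RA at 1.5-fold, and in control 0 under both scalings, without a floor and with mean probe sets. The share of all genes at 1.5-fold was not computed, so the 1.5-fold counts are no evidence about the group. Acan and Runx3, measured only through dKO, are among those counted in each part of dKO.

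Calls over all genes also moved: 283 for dKO became 168 with the lower floor, 115 and 87 under median and quantile scaling, 1435 without the proximal RA array and 1447 without the RA pair. The 66 for RA became 32, 35, 15, 1171 and, without the dKO pair, 537, and 122 probe sets. The 0 for part became 429 without the proximal RA array and 295, 354 and 431 without the control, dKO and RA pairs. Median scaling moved the all-gene log2 median to -0.35 (0.01 as deposited) in distal dKO, -0.17 (0.02) in proximal dKO and -0.24 (-0.04) in distal RA, and there 321 genes were higher and 192 lower in dKO (620 and 61 as deposited) and 159 and 424 in RA (246 and 243). Between parts, proximally higher and lower genes were 84 and 67 in dKO (60 and 84 as deposited), 742 and 546 in RA (506 and 708; quantile 628 and 577) and 124 and 196 in control (154 and 159). The RA fit called 13 higher and 2 lower under quantile scaling (37 and 29). The causes were not tested. The fit for part sets the proximal and distal array of each condition side by side, and with 1 array per group no replicate number could be added as a block. Genes at the floor give only bounds.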
